A study of Mus musculus with 9 samples.

Results

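The 40 genes described here encode the proteins that carry glucose and lactate across the plasma membrane, the enzymes of glycolysis with its 2,3-bisphosphoglycerate branch, the enzymes that control entry of pyruvate into the mitochondrion, and the pentose phosphate pathway. They were chosen by symbol for this known function, by a rule that uses no measured value, though with earlier results of these data known, and all 40 were found among the 27999 rows of the deposited table of counts of reads per gene. The libraries came from G1E cells, a mouse erythroid progenitor line derived from embryonic stem cells without functional Gata1, so all groups, controls included, lacked the cells' own GATA1 protein and came from 1 cell line. Cells had been spin-infected with virus that carried the HMD vector, either empty, with the cDNA of wildtype human GATA1, or with that of a human GATA1 mutant, and were grown with SCF and EPO. Each of these 3 groups had 3 libraries, described as biological replicates. The change carried by the mutant, the promoter that drove the cDNA, the time from infection to lysis and any selection of infected cells are not stated in the labels. GATA1 is the transcription factor that drives the erythroid programme, and the comparisons ask how these genes stood in cells given the wildtype factor, the mutant factor or neither.

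Glycolysis splits glucose into pyruvate and yields ATP and NADH without oxygen, and maturing red cells, which lose their mitochondria, come to depend on it. Several steps are carried out by isozymes from different genes: the erythrocyte pyruvate kinase is made from Pklr, whereas Pkm encodes the form of proliferating and most other cells. In red cells bisphosphoglycerate mutase, encoded by Bpgm, diverts part of the flow to 2,3-bisphosphoglycerate, which lowers the oxygen affinity of haemoglobin, and the pentose phosphate pathway supplies NADPH and ribose 5-phosphate.

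Library totals ranged from 11364358 to 17289307 counts, and a count of 0, which allows up to 3 counts, corresponded to at most 0.174 to 0.264 CPM (counts relative to library size) in a single library. Human GATA1 stood at 715 to 921 CPM in the wildtype libraries, at 598 to 706 CPM in the mutant libraries and at 0, 2 and 0 counts in the empty vector libraries. Levels below are CPM on library sizes scaled by TMM, a between-library normalization. Mutant replicates 1 and 2 were unusually alike: their mean chi-square per gene was 2.21, against 15 to 55.7 for the other pairs of libraries within a group, where sampling noise alone gives a value near 1. Both were also closer to empty vector replicate 3 (7.08 and 7.11) than to mutant replicate 3 (25.8 and 24.7). Among the 36 tested genes of the pathway, mutant replicate 3 was the lowest of its group for 30, and empty vector replicate 3 was the highest of its group for 21.

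The summed level of 10 erythroid markers was 733 to 830 CPM with empty vector, 18711 to 29801 CPM with wildtype GATA1 and 1909 to 2103 CPM with the mutant. All 10 were called higher with wildtype GATA1 and 6 of 10 with the mutant, each against empty vector. Progenitor markers summed to 1022 to 1226 CPM with empty vector, 380 to 448 CPM with wildtype GATA1 and 961 to 1059 CPM with the mutant. Markers of other blood lineages were low in all groups: mast cell markers summed to 29.5 to 36.1, 3.34 to 5.0 and 10.3 to 13.7 CPM in that order of groups, megakaryocyte markers to 49.4 to 54.6, 23.8 to 30.0 and 36.4 to 41.0 CPM, granulocyte and monocyte markers to 8.66 to 10.6, 1.92 to 2.24 and 6.36 to 8.76 CPM, and lymphoid markers to 6.95 to 7.84, 0.962 to 2.16 and 4.35 to 4.97 CPM. Mcpt8, Tpsb2, Gp1bb, Elane, Ly6c2 and Cd3e, which mark these lineages, had no count in any library. With wildtype GATA1 both the erythroid and progenitor marker levels and the pathway genes described below changed. With the mutant 6 of 10 erythroid markers were called higher and 2 of 2 tested mast cell markers lower. None was called of 4 tested progenitor markers, of the tested markers of the other lineages, or of 36 tested pathway genes. Only 0.271% of all tested genes were called there, so 0 calls among so few genes lies near that share. The part of the marker changes in the pathway changes was not tested. In bulk libraries a smaller share of cells of a type and less RNA per cell cannot be told apart.

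With wildtype GATA1, genes of the pathway changed in both directions. Against empty vector, edgeR's quasi-likelihood test with Benjamini-Hochberg adjustment over 9978 tested genes called 5 of the 36 tested members higher and 8 lower at an adjusted p under 0.05. Pklr, Bpgm, Pfkm, Pfkfb4 and Pdk2 rose, and Slc2a3, Hk2, Gpi1, Pfkp, Aldoc, Pgam1, Eno1 and Pkm fell. Across all tested genes 23.3% were called, 11.4% higher and 11.9% lower, and 8.19% were called and at least 2-fold different, which held for 4 members that rose and 3 that fell. The median log2 fold change was -0.17 over the members and -0.04 over all tested genes. The 3 libraries of one group lay wholly above or below those of the other for 23 members, 7 above and 16 below, against 32.6% of all tested genes. The 4 other members, Hk3, Pfkfb3, Eno2 and Ldhb, had too few counts to be tested. On plain library totals, which shift the median of all genes by -0.09, the members called were 5 higher and 13 lower, and 37.5% of all called genes were higher in place of 48.9%. As a whole the members took 2.79% ± 0.26 of all counts with empty vector, 2.16% ± 0.14 with wildtype GATA1 and 2.89% ± 0.27 with the mutant (SD, n = 3 libraries each). P-values here measure the spread between these libraries, since the sources do not say whether they came from separate infections.

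**Figure D1:**
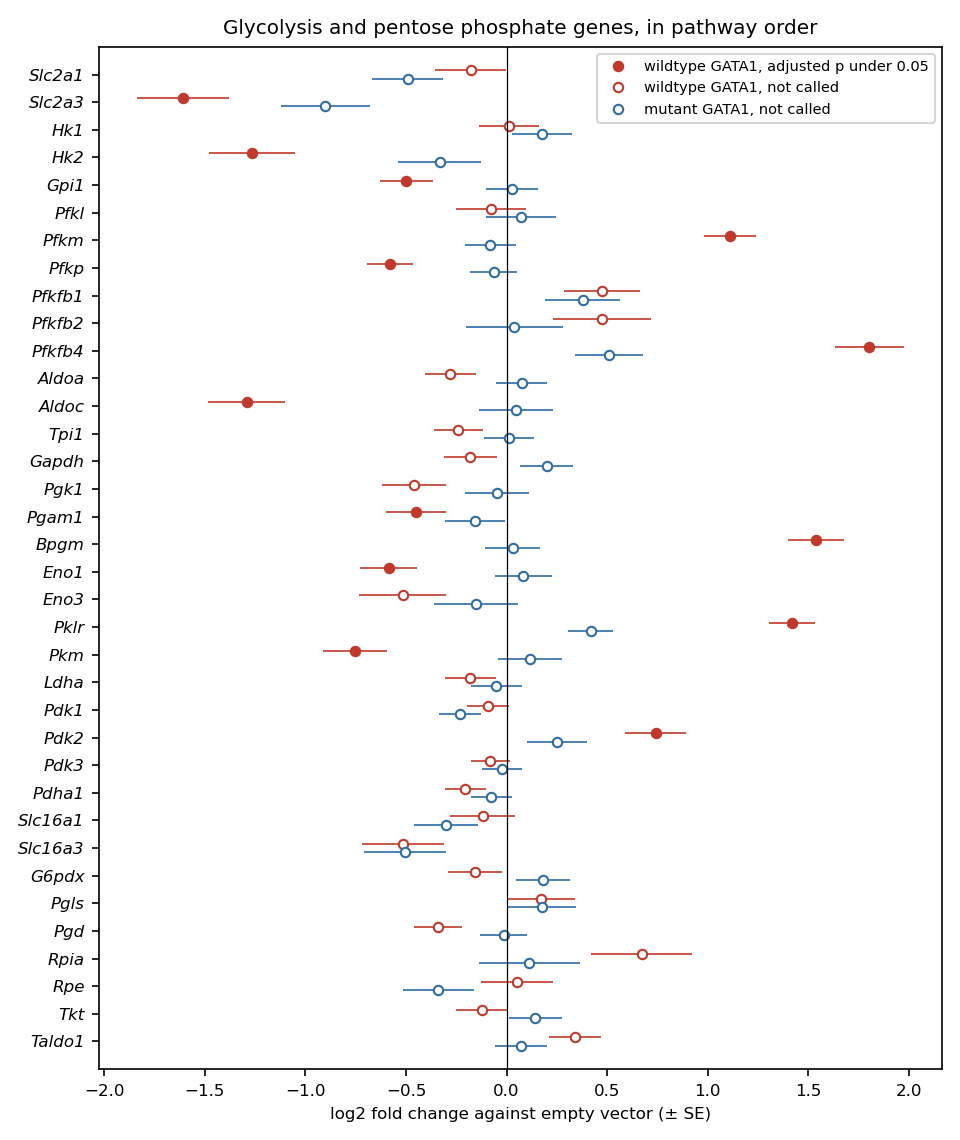
Log2 fold change against empty vector (x axis, ± SE) of the 36 tested genes, listed from glucose transport at the top to the pentose phosphate pathway at the bottom; filled circles passed an adjusted p of 0.05. With wildtype GATA1 (red) 5 genes are filled to the right of 0 and 8 to the left, and with the mutant (blue) none is filled.

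With wildtype GATA1 Pfkfb4, Bpgm, Pklr and Pfkm each rose by more than 2-fold, whereas Pkm, the pyruvate kinase counterpart of Pklr, fell. The 250 bases upstream of the farthest upstream RefSeq start of these 5 genes (GRCm38.p6) are shown because they are the promoters of the strongest rises and of the isozyme that moved the opposite way. Capitals mark the GATA motif (AGATAA or TGATAA on either strand) and the motif of the erythroid Krüppel-like factor family (CCNCNCCCN on either strand). The windows are Pklr at chr3:89135892-89136141, Bpgm at chr6:34476106-34476355, Pfkfb4 at chr9:108991652-108991901, Pfkm at chr15:98092339-98092588 and Pkm at chr9:59656326-59656575, all on the plus strand. By GENCODE M21 the Pklr and Pfkm windows end at the base before the gene, and the other 3 reach into it.
Pklr: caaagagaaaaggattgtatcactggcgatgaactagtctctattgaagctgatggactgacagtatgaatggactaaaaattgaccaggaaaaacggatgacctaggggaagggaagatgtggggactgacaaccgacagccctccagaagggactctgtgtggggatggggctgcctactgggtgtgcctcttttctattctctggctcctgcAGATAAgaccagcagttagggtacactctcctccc
Bpgm: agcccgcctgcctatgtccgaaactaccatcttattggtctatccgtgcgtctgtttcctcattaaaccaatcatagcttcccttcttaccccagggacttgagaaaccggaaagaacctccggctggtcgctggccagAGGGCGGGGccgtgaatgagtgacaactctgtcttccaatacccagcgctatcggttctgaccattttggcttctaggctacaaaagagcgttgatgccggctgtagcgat
Pfkfb4: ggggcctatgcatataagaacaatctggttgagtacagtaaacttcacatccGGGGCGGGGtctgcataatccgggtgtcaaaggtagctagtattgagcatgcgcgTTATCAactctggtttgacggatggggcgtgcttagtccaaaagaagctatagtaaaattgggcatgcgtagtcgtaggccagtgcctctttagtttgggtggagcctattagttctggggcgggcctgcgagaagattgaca
Pfkm: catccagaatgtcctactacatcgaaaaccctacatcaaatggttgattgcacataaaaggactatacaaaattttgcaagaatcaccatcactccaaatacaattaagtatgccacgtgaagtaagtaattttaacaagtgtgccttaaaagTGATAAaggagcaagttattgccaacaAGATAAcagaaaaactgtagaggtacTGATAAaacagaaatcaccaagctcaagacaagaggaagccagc
Pkm: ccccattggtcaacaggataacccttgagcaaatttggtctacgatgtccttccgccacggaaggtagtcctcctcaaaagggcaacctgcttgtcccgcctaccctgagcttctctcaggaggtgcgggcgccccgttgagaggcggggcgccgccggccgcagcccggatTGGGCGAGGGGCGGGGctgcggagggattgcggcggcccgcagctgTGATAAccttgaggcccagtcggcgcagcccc
The Pklr window held 1 GATA motif, which began 35 bases upstream of the start, and the Pfkm window held 3, at 97, 70 and 44 bases. The Pfkfb4 window held 1 GATA motif at 143 bases, which is TGATAA on the minus strand and is printed as TTATCA, and a Krüppel-like factor motif at 198 bases. The Bpgm window held a Krüppel-like factor motif at 111 bases and no GATA motif. A GATA motif also lay 32 bases upstream of the Pkm start, beside overlapping Krüppel-like factor motifs at 78 and 71 bases. In these windows a match was thus present both in genes that rose and in one that fell. The matches depend on the start: the 4 Pfkm windows held 3, 2, 1 and 0 GATA motifs. Pklr and Pkm each have 2 windows, and the one not printed held 0 GATA motifs. That window held 11 Krüppel-like factor motifs for Pkm and 0 for Pklr. Which start these cells used was not measured.

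RefSeq windows were found for 39 of the 40 genes, with 60 windows in all because some genes have several starts, and none was found for Slc2a3. A GATA motif was present in 11 of 60 windows (18.3%) from 8 genes, against 16.6% of 32851 windows of all genes, a similar share. The other genes with a match were Pfkfb1, Pfkfb2, Aldoa and Slc16a1, none of which was called. Krüppel-like factor motifs were present in 70% of member windows against 45.8% of all windows. The hypoxia response core (ACGTG or GCGTG) was present in 71.7% against 38.6%. The E-box CACGTG, which contains that core, was present in 10% against 6.02%. These are matches of letters only and no binding was measured here.

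Glucose enters through the transporters Slc2a1 (GLUT1) and Slc2a3 (GLUT3), of which Slc2a3 was called and Slc2a1 was not; the difference between them was not tested. The level of Slc2a3 was 325, 283 and 312 CPM in the empty vector libraries, 72.8, 86.2 and 142 CPM with wildtype GATA1 and 198, 170.5 and 124 CPM with the mutant. Every wildtype library lay below every empty vector library, and wildtype replicate 3 lay above mutant replicate 3. Slc2a3 fell 3.05-fold with wildtype GATA1 (log2 fold change -1.61 ± 0.23 SE, adjusted p = 0.000222, edgeR). Slc2a1 stood at 73.1, 61.8 and 66.0 CPM with empty vector, 61.4, 55.3 and 60.7 CPM with wildtype GATA1 and 57.3, 52.7 and 32.7 CPM with the mutant. Its groups did not overlap between empty vector and either other group, but its log2 fold change of -0.18 ± 0.18 with wildtype GATA1 did not pass the test (adjusted p = 0.499, edgeR). Slc2a4 (GLUT4), the insulin-regulated transporter and no member of the 40, had 173 counts over the wildtype libraries, 3 with empty vector and 2 with the mutant. That is a ratio of 68.6 (95% counting interval 23.1 to 336) of wildtype to empty vector and of 116.5 (31.8 to 970) of wildtype to mutant, at a level of only 3.34 to 6.64 CPM in the wildtype libraries.

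Hexokinases phosphorylate glucose and so keep it in the cell. Hk2, the inducible form, stood at 73.8, 68.1 and 79.5 CPM with empty vector, 30.5, 21.0 and 40.6 CPM with wildtype GATA1 and 70.3, 59.9 and 45.5 CPM with the mutant. The wildtype libraries were the lowest, and mutant replicate 1 lay within the empty vector range. Hk2 fell 2.40-fold with wildtype GATA1 (log2 fold change -1.26 ± 0.21 SE, adjusted p = 0.000912, edgeR). Hk1, the constitutive form and the main hexokinase of red cells, was 209 ± 45.8, 211 ± 15.2 and 236 ± 20.8 CPM (mean ± SD, n = 3) with empty vector, wildtype and mutant GATA1, and was not called in any comparison. Hk3, the form of myeloid cells, had 0 counts in the empty vector and wildtype groups and 3, 0 and 3 counts with the mutant. Glucose-6-phosphate isomerase, encoded by Gpi1, stood at 1079, 1116 and 1305 CPM with empty vector, 761, 836 and 881 CPM with wildtype GATA1 and 1294, 1266 and 1009.6 CPM with the mutant. The wildtype libraries again lay below all others. The fall of 1.41-fold against empty vector (adjusted p = 0.0145, edgeR) was not called without wildtype replicate 1 (adjusted p = 0.106).

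Phosphofructokinase commits sugar to glycolysis, and its subunits come from 3 genes. The muscle-type subunit Pfkm stood at 32.7, 38.6 and 40.2 CPM with empty vector, 87.0, 77.6 and 76.0 CPM with wildtype GATA1 and 36.6, 36.6 and 32.1 CPM with the mutant. The wildtype group lay far above the other groups, which overlapped each other. Pfkm rose 2.16-fold (log2 fold change 1.11 ± 0.13 SE, adjusted p = 4.17e-05, edgeR). The platelet-type subunit Pfkp went the other way, with 195, 190.2 and 222 CPM with empty vector, 137, 131 and 138 CPM with wildtype GATA1 and 212, 199 and 169 CPM with the mutant. Its fall was 1.49-fold (adjusted p = 0.00309, edgeR), and again only the wildtype group stood apart. The liver-type subunit Pfkl, the most abundant of the 3 per kilobase of exon, was 368 ± 66.3, 349 ± 41.9 and 387 ± 85.8 CPM in the same order of groups and was not called.

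The PFKFB enzymes make and remove fructose 2,6-bisphosphate, the activator of phosphofructokinase. Pfkfb4 stood at 15.9, 18.7 and 25.4 CPM with empty vector, 76.1, 69.7 and 64.0 CPM with wildtype GATA1 and 30.3, 29.9 and 25.3 CPM with the mutant. It rose 3.49-fold with wildtype GATA1, the greatest rise among the 36 tested members (log2 fold change 1.80 ± 0.17 SE, adjusted p = 7.93e-06, edgeR). Mutant libraries overlapped the empty vector libraries only through empty vector replicate 3, which at 25.4 CPM exceeded mutant replicate 3. Pfkfb1 and Pfkfb2 were scarce, at 4.69 and 4.53 CPM with empty vector and 6.51 and 6.29 CPM with wildtype GATA1, and neither was called. Pfkfb3, the form often induced by hypoxia and growth signals, had no count in any of the 9 libraries, which allows at most 0.0835 CPM in any group.

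From aldolase to phosphoglycerate kinase, 1 of 5 genes was called with wildtype GATA1, near the 23.3% called among all tested genes. Aldoc, the minor aldolase, stood at 34.0, 28.7 and 32.9 CPM with empty vector, 8.96, 15.2 and 15.01 CPM with wildtype GATA1 and 33.4, 36.0 and 29.3 CPM with the mutant. The wildtype libraries lay well below the other groups, which overlapped. Aldoc fell 2.45-fold (log2 fold change -1.29 ± 0.19 SE, adjusted p = 0.000327, edgeR). Aldoc made up only 0.98%, 0.48% and 0.96% of aldolase per kilobase of exon with empty vector, wildtype and mutant GATA1. Aldoa was 3676 ± 365, 3026 ± 239 and 3875 ± 443 CPM with empty vector, wildtype and mutant GATA1, and its log2 fold change of -0.28 ± 0.13 did not pass the test (adjusted p = 0.131, edgeR). Tpi1 (triosephosphate isomerase) stood at 2417 CPM with empty vector and 2048 CPM with wildtype GATA1, Gapdh at 1878 and 1658 CPM, and Pgk1 (phosphoglycerate kinase) at 796 and 578 CPM. None of these 3 was called, Pgk1 being the nearest (adjusted p = 0.0529, edgeR).

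The direct route then runs through phosphoglycerate mutase and enolase, whose genes fell with wildtype GATA1, whereas the gene of the enzyme of the 2,3-bisphosphoglycerate branch rose. Bpgm stood at 40.3, 37.0 and 37.4 CPM with empty vector, 124, 119 and 90.7 CPM with wildtype GATA1 and 37.5, 42.9 and 36.8 CPM with the mutant. All wildtype libraries exceeded all others, and empty vector and mutant libraries were intermingled. Bpgm rose 2.90-fold (log2 fold change 1.54 ± 0.14 SE, adjusted p = 5.39e-06, edgeR). Pgam1, the mutase, stood at 108, 87.6 and 100.1 CPM with empty vector, 69.4, 75.6 and 71.4 CPM with wildtype GATA1 and 98.9, 98.4 and 68.2 CPM with the mutant. The empty vector and wildtype groups did not overlap, but the fall of 1.37-fold was close to the threshold (adjusted p = 0.0445, edgeR) and was called in only 6 of 17 alternative fits. Eno1 (enolase) stood at 1211, 1350.0 and 1587 CPM with empty vector, 790.0, 971 and 1003 CPM with wildtype GATA1 and 1561, 1563 and 1272 CPM with the mutant, with the wildtype group below both others. It fell 1.5-fold (adjusted p = 0.00953, edgeR), a call lost without wildtype replicate 1 (adjusted p = 0.0836). Eno1b, a near-identical copy with which Eno1 may share reads, moved alike, from 157 to 106 CPM (adjusted p = 0.0116, edgeR), so the division between the copies is uncertain. Eno3, the muscle enolase, stood at 13.4 and 9.41 CPM and was not called, and Eno2, the neuronal form, had 11, 2 and 15 counts over the empty vector, wildtype and mutant groups.

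At the last step of glycolysis both pyruvate kinase genes changed, in opposite directions. Pklr stood at 127, 135 and 153 CPM with empty vector, 391, 377 and 343 CPM with wildtype GATA1 and 189, 193 and 172 CPM with the mutant. No groups overlapped, and the mutant libraries lay between the others. Pklr rose 2.68-fold with wildtype GATA1 (log2 fold change 1.42 ± 0.11 SE, adjusted p = 1.96e-06, edgeR), the smallest p among the members. Pkm stood at 3400.3, 3674 and 4461 CPM with empty vector, 1810.1, 2585 and 2441 CPM with wildtype GATA1 and 4459, 4476 and 3553 CPM with the mutant. Its wildtype libraries lay below all others, and it fell 1.69-fold (log2 fold change -0.75 ± 0.16 SE, adjusted p = 0.00433, edgeR). Library preparation kept no strand, and Pklr shares 711 exon bases (22.0% of its exons) with Hcn3 on the opposite strand. Hcn3 was counted at 0.828 CPM with empty vector and 1.70 CPM with wildtype GATA1, without overlap of the groups (adjusted p = 0.0509, edgeR). Other called genes share exon bases too. Pfkp shares 748 (5.58%) with Pitrm1 and Gpi1 741 (11.5%) with Gm26762, both on the opposite strand. On the same strand Pkm shares 767 (15.3%) with Gm49759 and Pfkm 341 (10.2%) with Gm26513. Pitrm1 averaged 421 CPM with empty vector and 410 CPM with wildtype GATA1 and was not called. The part of the shared bases in the counts of Pklr and these genes was not tested.

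Pyruvate is then reduced to lactate or oxidised in the mitochondrion. Ldha, the gene of the M subunit of lactate dehydrogenase, had the highest level per kilobase of all 40 genes, and its 6824 ± 345, 6023 ± 732 and 6582 ± 669 CPM with empty vector, wildtype and mutant GATA1 gave no call in any comparison (for wildtype GATA1 against empty vector, adjusted p = 0.331, edgeR). Ldhb, the gene of the H subunit, had no count in any library. Pyruvate dehydrogenase kinases switch off the entry of pyruvate into the citric acid cycle, and among them Pdk2 stood at 29.8, 34.2 and 40.9 CPM with empty vector, 64.0, 56.0 and 55.6 CPM with wildtype GATA1 and 41.1, 47.9 and 35.9 CPM with the mutant. Wildtype libraries were the highest, with overlap between the other groups. Pdk2 rose 1.67-fold (log2 fold change 0.74 ± 0.15 SE, adjusted p = 0.00336, edgeR). Pdk1 (206 and 194 CPM with empty vector and wildtype GATA1), Pdk3 (203 and 192 CPM) and their target's catalytic subunit gene Pdha1 (254 and 220.4 CPM) were not called. The lactate exporters Slc16a1 (MCT1) and Slc16a3 (MCT4) stood at 229.9 and 212 CPM and at 27.2 and 19.0 CPM, and Slc16a3 had a log2 fold change of -0.52 ± 0.21 that did not pass the test (adjusted p = 0.0896, edgeR).

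**Figure D2:**
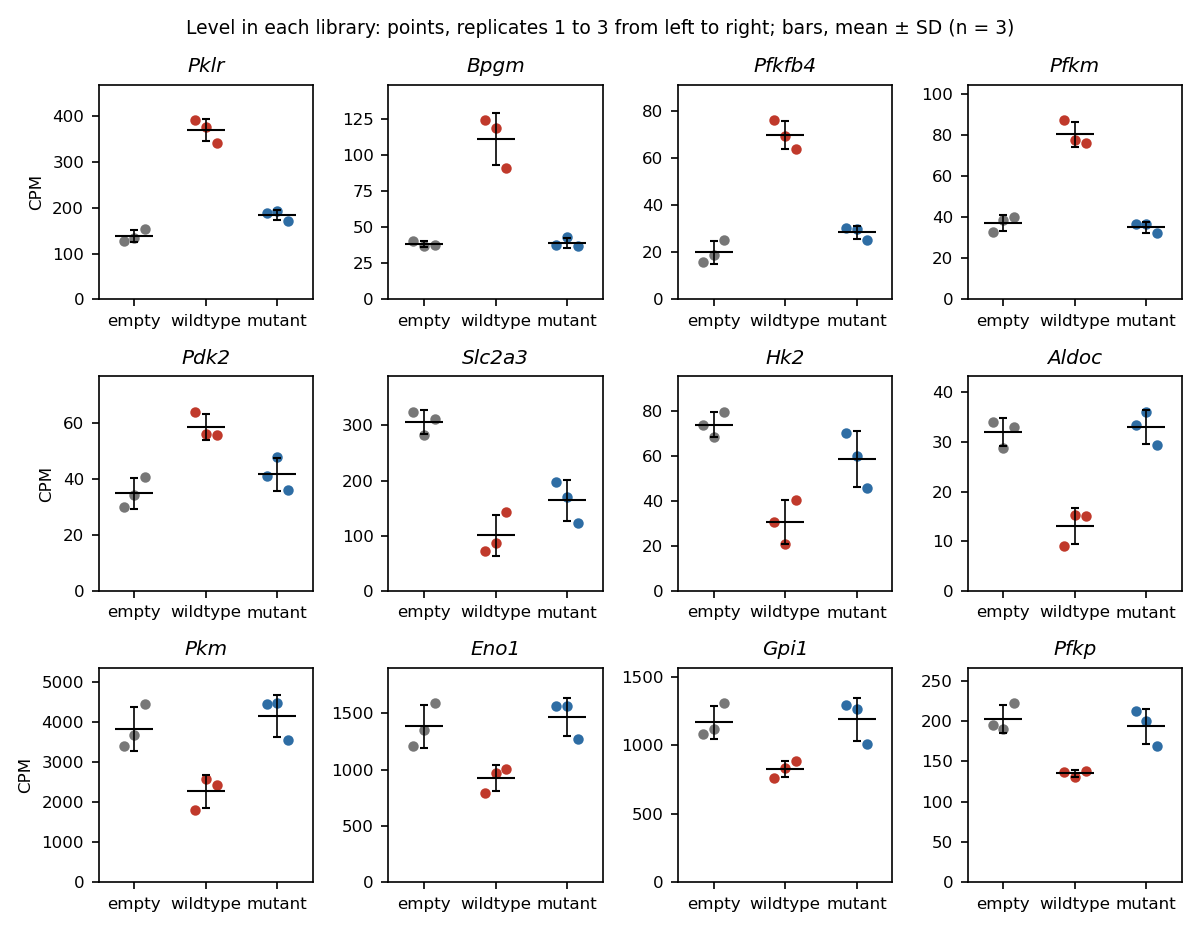
Level (CPM, y axis from 0) of 12 genes called with wildtype GATA1, in each library of the empty vector, wildtype and mutant groups; each point is a library and the lines show mean ± SD (n = 3). In the first 5 panels (Pklr to Pdk2) the wildtype points are the highest, as for Bpgm at 90.7 to 124 CPM, and in the others they lie below the empty vector points, as for Pkm at 2279 against 3845 CPM on average.

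edgeR called none of the 7 tested pentose phosphate genes with wildtype GATA1, where 23.3% of all tested genes were called. Among the 7, 3 had an unadjusted p under 0.05 (edgeR), and DESeq2 called 1, Taldo1, higher. Of all 9978 tested genes 3639 had an unadjusted p under 0.05 (edgeR) in this comparison. In the oxidative arm, which makes NADPH, G6pdx (glucose-6-phosphate dehydrogenase) stood at 91.5, 108 and 130.0 CPM with empty vector and 105, 97.3 and 93.5 CPM with wildtype GATA1, and the groups overlapped. Pgd (6-phosphogluconate dehydrogenase) stood at 324, 361 and 388 CPM with empty vector and 275, 306 and 265 CPM with wildtype GATA1, with no overlap but a log2 fold change of -0.34 ± 0.12 just short of the threshold (adjusted p = 0.0535, edgeR). Pgd was called lower on plain library totals and without empty vector replicate 1. Pgls, the lactonase between G6pdx and Pgd, averaged 209.6 and 236 CPM. In the arm that interconverts sugar phosphates, Taldo1 (transaldolase) stood at 469, 497 and 520.0 CPM with empty vector and 689.8, 684 and 506 CPM with wildtype GATA1. Wildtype replicate 3 alone lay within the empty vector range, and without it Taldo1 was called higher; with all libraries edgeR gave a log2 fold change of 0.34 ± 0.13 (adjusted p = 0.078). Tkt (transketolase) averaged 1626 and 1494 CPM and Rpe (ribulose-phosphate epimerase) 42.8 and 44.3 CPM. Rpia (ribose-5-phosphate isomerase) was scarce at 3.63 and 5.79 CPM, with a log2 fold change of 0.67 ± 0.25 that did not pass the test (adjusted p = 0.0721, edgeR).

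The mutant changed no member past the threshold. Against empty vector, edgeR called 0 of 36 members, 6 had an unadjusted p under 0.05, and DESeq2 called 1, Slc2a3, lower. Of all 9978 tested genes 1284 had an unadjusted p under 0.05 (edgeR). Few genes of any kind were called in this comparison, 0.271% of all tested (0.21% higher and 0.0601% lower), and it shares its empty vector libraries with the wildtype comparison. The median log2 fold change of the members was 0.03, and the groups did not overlap for 7 members, 2 above and 5 below, against 15% of all tested genes. The members with the largest differences were Slc2a3, at 164 against 306 CPM (log2 fold change -0.90 ± 0.22 SE, adjusted p = 0.17, edgeR), and Pfkfb4, at 28.5 against 20 CPM (0.51 ± 0.17, adjusted p = 0.326, edgeR). Slc2a1 was at -0.49 ± 0.18 (adjusted p = 0.343, edgeR) and Pklr at 0.42 ± 0.11 (adjusted p = 0.213, edgeR). The 7 members whose groups did not overlap were Slc2a1, Slc2a3, Pdk1, Pdha1 and Slc16a3 below and Pfkfb1 and Pklr above. Without empty vector replicate 3, the library closest to mutant replicates 1 and 2, Slc2a3 was called lower and Pfkfb4 and Pklr higher (adjusted p = 0.0234 and 0.0314). Slc2a3 was also called lower without wildtype replicate 3 and without the filter on low counts.

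Set side by side, the wildtype and mutant log2 fold changes against the shared empty vector libraries were 1.42 ± 0.11 and 0.42 ± 0.11 for Pklr, 1.80 ± 0.17 and 0.51 ± 0.17 for Pfkfb4, and -1.61 ± 0.23 and -0.90 ± 0.22 for Slc2a3. For Bpgm and Pfkm the mutant libraries averaged 39.1 and 35.1 CPM, beside 38.2 and 37.1 CPM with empty vector and 111 and 80.2 CPM with wildtype GATA1. For Pkm, Eno1, Gpi1 and Aldoc, all of which fell with wildtype GATA1, the mutant averaged 4163, 1465, 1189.8 and 32.9 CPM beside 3845, 1383, 1167 and 31.9 CPM with empty vector.

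The direct comparison of mutant with wildtype GATA1 called 8 of 36 members higher and 5 lower, where 25.9% of all tested genes were called, 13.2% higher and 12.7% lower. Calls of at least 2-fold were 1 higher and 4 lower among the members and 7.28% of all tested genes. Higher with the mutant were Slc2a3, Hk2, Gpi1, Pfkp, Aldoc, Gapdh, Eno1 and Pkm. Lower with the mutant were Pfkm, Pfkfb4, Bpgm, Pklr and Pdk2. This comparison shares its wildtype libraries with that against empty vector. Groups did not overlap for 20 members, 11 above and 9 below, against 44.2% of all tested genes, and the median log2 fold change of the members was 0.14.

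Pklr was 2.0-fold lower with the mutant than with wildtype GATA1 (log2 fold change -1.002 ± 0.11 SE, adjusted p = 4.27e-05, edgeR), Bpgm 2.84-fold lower (-1.51 ± 0.14, adjusted p = 8.34e-06) and Pfkm 2.28-fold lower (-1.19 ± 0.13, adjusted p = 2.8e-05). Pfkfb4 was 2.45-fold lower (-1.29 ± 0.17, adjusted p = 0.000125, edgeR). In the other direction Aldoc was 2.53-fold higher (1.34 ± 0.19, adjusted p = 0.00029, edgeR), Hk2 1.91-fold higher (0.93 ± 0.21, adjusted p = 0.00729) and Pkm 1.83-fold higher (0.87 ± 0.16, adjusted p = 0.00188). For these 7 genes every mutant library lay on one side of every wildtype library. Eno1 was 1.59-fold higher (adjusted p = 0.00458, edgeR), and these 8 genes were called in all 18 alternative fits. The other 5 calls, of Slc2a3 (adjusted p = 0.0347), Gpi1 (adjusted p = 0.0109), Pfkp (adjusted p = 0.00675), Gapdh (adjusted p = 0.0494) and Pdk2 (adjusted p = 0.0297, edgeR), were each lost in some. Of the 18 alternative fits, Gapdh was called in only 8, Slc2a3 and Pdk2 in 11 each, Gpi1 in 14 and Pfkp in 17. On plain library totals, which shift the median of all genes by 0.11, the members called were 14 higher and 4 lower, and 66.5% of all called genes were higher in place of 50.9%. Without mutant replicate 1, without mutant replicate 2 or without wildtype replicate 1, the number called higher was 4, 5 and 5 in place of 8.

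Same-numbered mutant and wildtype libraries deviated together from their group means (correlations over genes of 0.171, 0.286 and 0.533), although some with different numbers did so as well (0.240 and 0.223 between replicates 1 and 2), so the pairing is uncertain. A fit with the replicate number as a block, made on these 6 libraries, called 15 members higher and 9 lower, where 48.1% of all tested genes were called, 23.6% higher and 24.5% lower. All 13 calls above were made there too. With the block on all 9 libraries 6 members were called higher and 4 lower, none of them new, and Slc2a3, Gapdh and Pdk2 were not called. The block on the 6 libraries added Aldoa, Tpi1, Pgk1 and Pgam1 to the higher genes and, from the pentose phosphate pathway, G6pdx, Pgd and Tkt. That fit also added Slc2a1, Rpia, Rpe and Taldo1 to the lower ones. G6pdx averaged 125 CPM with the mutant and 98.5 CPM with wildtype GATA1, and Rpe 33.9 and 44.3 CPM. In the main fit of all 9 libraries, without the block, edgeR called none of the 7 pentose phosphate genes, and DESeq2 also called none. An unadjusted p under 0.05 (edgeR) was then reached by 4 of them, beside 3898 of all 9978 tested genes. G6pdx had an adjusted p = 0.0815 and Rpe an adjusted p = 0.125 (edgeR) in that fit. Some other edgeR fits without the block did call pentose phosphate genes. On only the 6 libraries these were G6pdx and Rpe, and on library totals G6pdx, Pgd and Tkt. With 1 library left out, G6pdx, Pgd, Rpe or Taldo1 was called, depending on the library.

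In 7 of 10 enzymes with several isozyme genes, the wildtype and empty vector libraries did not overlap in the share of at least 1 isozyme. Each of the 7 holds a gene already called above, so the shares restate those calls. Shares have no counterpart over all genes, but the levels of 32.6% of all tested genes did not overlap in this comparison. Levels were divided by annotated exon length and each isozyme was expressed as a percentage of its enzyme. Pklr made up 5.29% ± 0.23 of pyruvate kinase with empty vector, 20.4% ± 4.02 with wildtype GATA1 and 6.46% ± 0.45 with the mutant (SD, n = 3). Pfkm made up 13.7% ± 1.26, 27.8% ± 1.42 and 12.9% ± 1.58 of phosphofructokinase in the same order of groups. Pfkl was the main subunit gene in all groups, at 67.6%, 60.4% and 69.5% on average. Hk2 made up 33.9% ± 4.19, 17.0% ± 4.26 and 26.0% ± 2.52 of the hexokinases, the rest being Hk1 but for traces of Hk3. Of the paired transporters, Slc2a3 made up 68.9% ± 0.67, 44.2% ± 8.44 and 62.7% ± 1.82. Per kilobase of exon, Slc2a1 held the larger share only in wildtype replicates 1 and 2, at 63.6% and 57.0%. That depends on the annotated exon lengths, 7245 bases for Slc2a3 and 3506 for Slc2a1, where median coding transcripts have 3959 and 3260. In CPM, not divided by length, Slc2a3 exceeded Slc2a1 in every library, as at 72.8 against 61.4 CPM in wildtype replicate 1. Pfkfb4 made up 69.0% ± 7.87, 85.2% ± 1.36 and 73.0% ± 1.95 of the PFKFB genes, and Pdk2 9.45%, 15.6% and 11.6% of the pyruvate dehydrogenase kinases on average. With the aldolases given above, these are the 7 enzymes. Mutant and empty vector shares did not overlap either for Pklr (6.15% to 6.98% against 5.03% to 5.46%), Hk2 (23.4% to 28.4% against 30.6% to 38.6%) and Slc2a3 (61.0% to 64.7% against 68.3% to 69.6%), nor for Eno1, Eno3 and Pdk1, so 5 enzymes had a share without overlap there. The levels of 15% of all tested genes did not overlap in that comparison. Every share without overlap gives p = 0.1 in an exact two-sided permutation test of 3 against 3, the smallest it allows. With transcript lengths in place of exon lengths the Pklr share rose by 8.82 percentage points in place of 15.1.

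**Figure D3:**
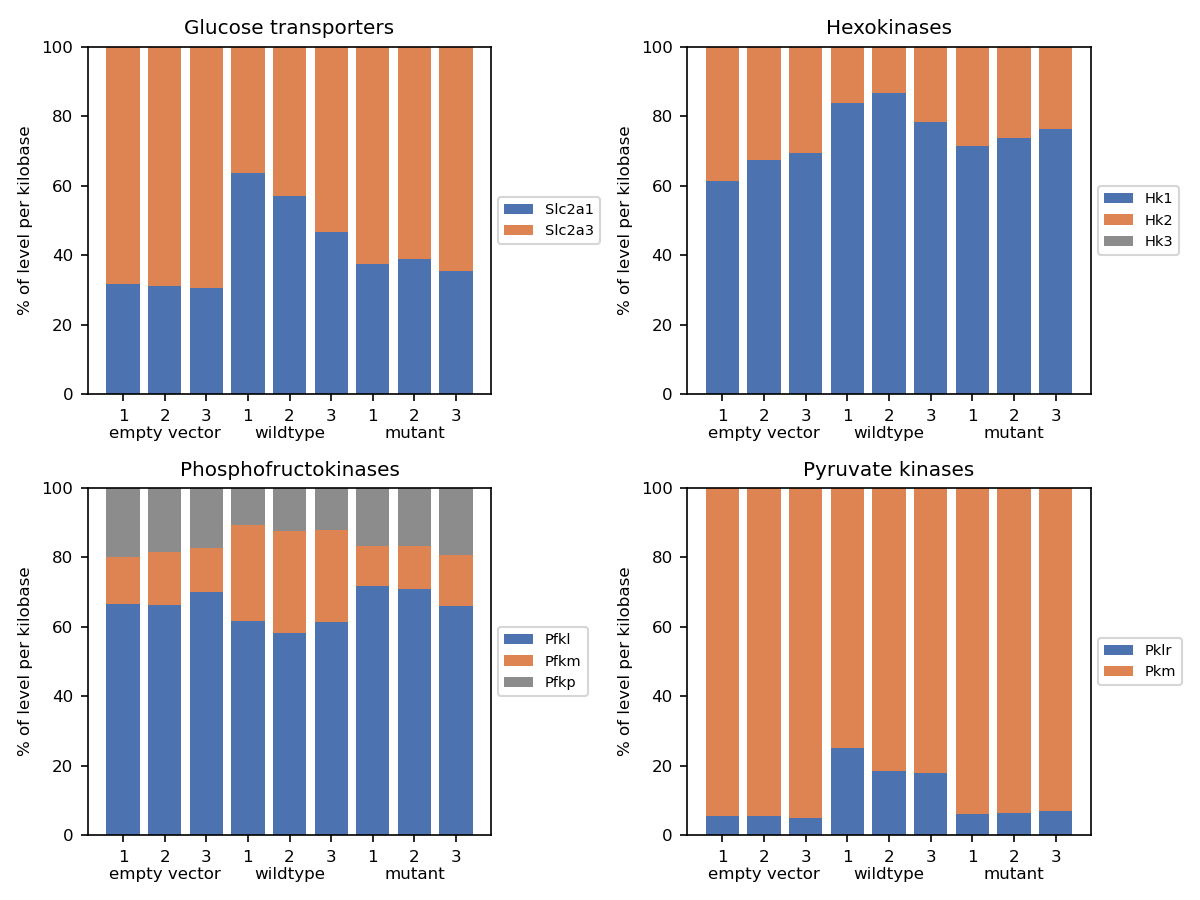
Share of each isozyme gene in the level per kilobase of its enzyme (% of level per kilobase, y axis) in each of the 9 libraries, replicates 1 to 3 of each group from left to right. The Pklr share is 17.8% to 25.0% in the wildtype libraries and 5.0% to 7.0% in all others, and Slc2a1 takes 46.8% to 63.6% of the glucose transporters in the wildtype libraries against 30.4% to 39.0% in all others.

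Related genes of carbohydrate metabolism outside the 40 were taken from a list of 64, of which 39 were tested. With wildtype GATA1 8 were called higher and 12 lower, with a median log2 fold change of -0.32 beside -0.04 over all tested genes. These calls are 51.3% of the related genes tested, beside 23.3% of all tested genes. Pcx (pyruvate carboxylase, which makes oxaloacetate from pyruvate) had the smallest p, at 17.5, 18.9 and 23.7 CPM with empty vector, 64.2, 95.9 and 98.1 CPM with wildtype GATA1 and 24.2, 23.3 and 22.7 CPM with the mutant. Its wildtype libraries lay far above all others, a rise of 4.29-fold (log2 fold change 2.10 ± 0.18 SE, adjusted p = 3.02e-06, edgeR). Also higher were Slc2a4, the mitochondrial pyruvate carrier subunit Mpc1 (from 26.6 to 50.8 CPM), the mitochondrial PEP carboxykinase Pck2 (43.8 to 82.1 CPM), Bsg, the chaperone of the lactate exporters (615 to 915 CPM), Slc2a8, Gnpda1 and Pgp.

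Genes of glycogen turnover and of the hexosamine branch were among those that fell. Gfpt1, the entry enzyme of the hexosamine pathway, stood at 94.4, 99.9 and 97.2 CPM with empty vector, 36.1, 34.1 and 45.1 CPM with wildtype GATA1 and 72.1, 72.3 and 82.8 CPM with the mutant, in 3 groups that did not overlap. It fell 2.53-fold with wildtype GATA1 (log2 fold change -1.34 ± 0.13 SE, adjusted p = 1.08e-05, edgeR). Phosphoglucomutase Pgm2 fell from 121 to 48.8 CPM (-1.31 ± 0.13, adjusted p = 1.37e-05, edgeR) and glycogen phosphorylase Pygb from 38.1 to 17.0 CPM (-1.16 ± 0.17, adjusted p = 0.000251, edgeR). Glycogen synthase Gys1 fell from 38.1 to 20.7 CPM, branching enzyme Gbe1 from 65.5 to 35.2 CPM and Ugp2, which makes UDP-glucose, from 18.2 to 10.9 CPM. Pgm1, Gpd1l, G6pc3, Prps2, H6pd and Pdp2 were the others that fell.

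With the mutant, edgeR called none of the 39 related genes against empty vector, and DESeq2 also called none. An unadjusted p under 0.05 (edgeR) was reached by 3 of them, beside 1284 of all 9978 tested genes. Gfpt1 had the smallest p (adjusted p = 0.342, edgeR, log2 fold change -0.36 ± 0.13 SE). Dld, Pgm1, Pdp1 and Pdpr came next, at log2 fold changes of -0.49 ± 0.19, -0.26 ± 0.10, -0.42 ± 0.20 and 0.39 ± 0.18. Between mutant and wildtype GATA1, 12 related genes were called higher and 7 lower with the mutant, 48.7% of those tested beside 25.9% of all tested genes. The block on the 6 libraries called 13 related genes higher and 15 lower, where 48.1% of all tested genes were called. Slc2a4 and Pcx had the smallest p-values among the lower ones, and Pcx was 3.67-fold lower with the mutant (adjusted p = 9.34e-06, edgeR), and Pgm2, Pygb and Gfpt1 were 2.24-fold, 2.31-fold and 1.97-fold higher. Both subunits of the pyruvate carrier were lower with the mutant, Mpc1 at 28.3 against 50.8 CPM and Mpc2 at 66.6 against 98.4 CPM.

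**Figure D4:**
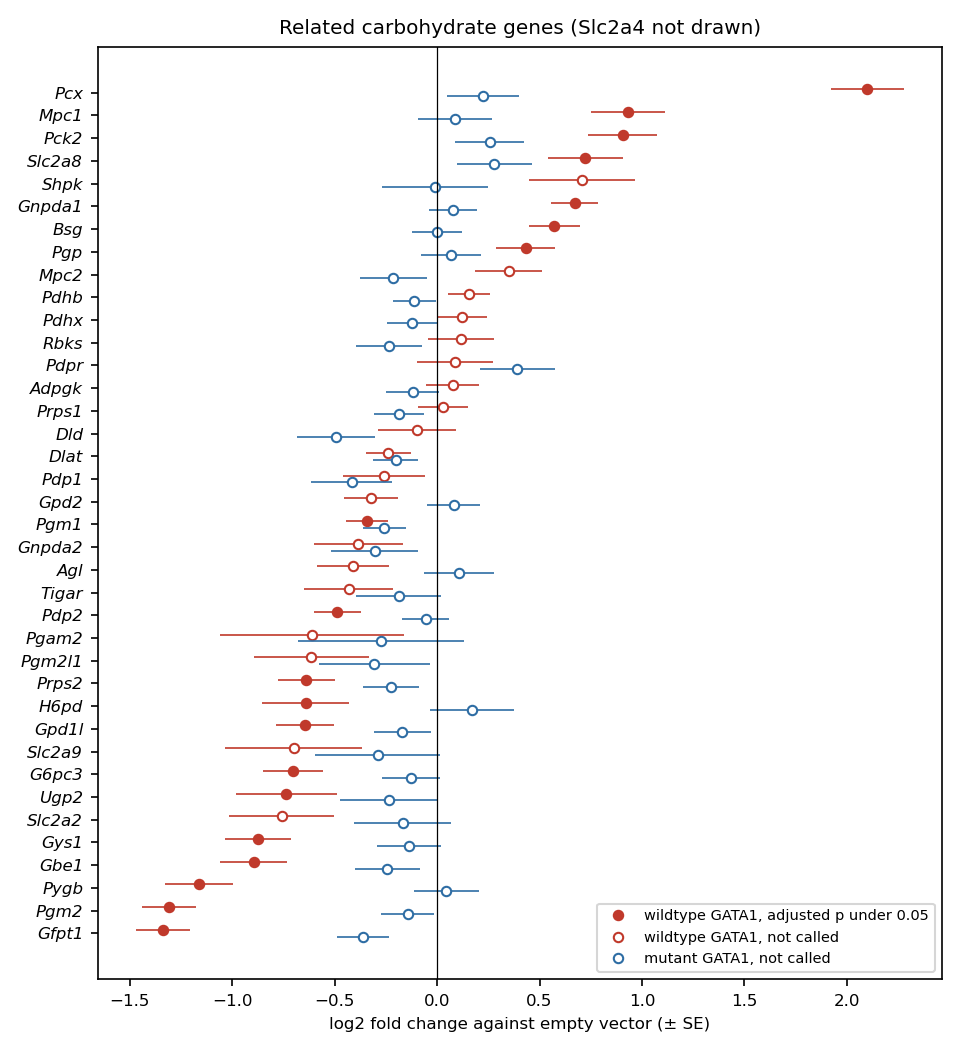
Log2 fold change against empty vector (x axis, ± SE) of the tested related carbohydrate genes other than Slc2a4, ordered by the wildtype value. Filled red circles, which passed an adjusted p of 0.05 with wildtype GATA1, run from Pcx at 2.10 ± 0.18 to Gfpt1 at -1.34 ± 0.13, and no blue circle, for the mutant, is filled.

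Of 13 genes that encode known regulators of glycolysis, 9 were tested, and with wildtype GATA1 3 fell and none rose. In that comparison 11.9% of all tested genes were called lower and 11.4% higher. Hif1a, the oxygen-regulated factor, stood at 154, 158 and 118 CPM with empty vector, 80.5, 76.6 and 118 CPM with wildtype GATA1 and 114, 114 and 129 CPM with the mutant, and wildtype replicate 3 lay just within the range of the empty vector group (log2 fold change -0.64 ± 0.17 SE, adjusted p = 0.0156, edgeR). Myc stood at 521, 644 and 736 CPM with empty vector and 422, 454 and 440.5 CPM with wildtype GATA1 (-0.53 ± 0.13, adjusted p = 0.0105, edgeR). Txnip, a brake on glucose uptake, stood at 44.1, 46.9 and 42.7 CPM and 21.9, 31.5 and 35.0 CPM (-0.60 ± 0.16, adjusted p = 0.0163, edgeR). With the mutant Myc was 706, 702 and 627 CPM and Txnip 41.2, 42.1 and 44.2 CPM, and both were called higher than with wildtype GATA1 (adjusted p = 0.00404 and adjusted p = 0.0274, edgeR). Of 13 hypoxia response genes outside the pathway 9 were tested, and Ddit4 (-1.10 ± 0.23), P4ha1 (-1.04 ± 0.22) and Kdm3a (-0.44 ± 0.15) fell with wildtype GATA1 on the log2 scale. None of either list was called with the mutant against empty vector by edgeR or DESeq2. An unadjusted p under 0.05 (edgeR) was reached by 0 of the 9 regulators and 5 of the 9 hypoxia response genes, beside 1284 of all 9978 tested genes. The summed level of the hypoxia response genes was 657 to 1130 CPM with empty vector, 714 to 898 CPM with wildtype GATA1 and 576 to 620 CPM with the mutant, and its part in the changes of the members was not tested.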

How the data were processed

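The authors deposited a gene table of raw read counts with 27999 rows, of which 1 is human GATA1 and was left out of the tests. Per the submitters' processing notes, the tools include STAR and the builds are GRCm38.p4 and hg19. The counting tool and annotation are not stated there or in the labels. Per the labels' protocols, total RNA was turned into libraries by Smart-seq2, which keeps no strand, with Nextera-based indexes. No unassigned reads were listed, and 12975 rows had no count in any library.

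Counts were tested in R 4.3.3 with edgeR 4.0.16 (TMM, filterByExpr by group, quasi-likelihood fit over all 9 libraries, 6 residual degrees of freedom), with Benjamini-Hochberg adjustment over 9978 genes in each of 3 comparisons. A gene was called at an adjusted p under 0.05. The approximate SE divides the size of the log2 fold change by the root of F. DESeq2 1.42.0 was an alternative, beside other normalizations and filters, fewer libraries and a replicate block. The test was checked on simulated counts. Level per kilobase used the union of exons in GENCODE M21 (GRCm38). Promoter sequences are those of RefSeq on GRCm38.p6. Intervals and floors cover counting error only.

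The members and the lists of related, regulator, hypoxia and marker genes were chosen with earlier results of these data known. All 40 members are accounted for, with values per library for those called in any comparison and for isozymes; of the related and regulator lists, the 5 genes with the smallest p in a comparison have values and others that were called may be named. Same-numbered mutant and wildtype libraries deviated together (correlations 0.171, 0.286 and 0.533 over genes), so by that criterion the replicate numbers were treated as pairs in an alternative fit. Replicates 1 and 2 of the 2 groups also correlated across numbers (0.240 and 0.223), the labels name no shared batch, and same-numbered correlations with empty vector were negative.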

Additional observations from a re-analysis of the deposited data

How the results depend on the processing

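The 13 wildtype calls against empty vector kept their direction in the 17 alternatives run, and 10 were called in each. The exceptions were Pgam1, called in 6 of 17, and Gpi1 and Eno1, both lost without wildtype replicate 1. Of the 13 calls between mutant and wildtype, 8 were made in all 18 alternatives. With 1 library left out, members called with wildtype GATA1 numbered 5 to 6 higher and 5 to 9 lower (5 lower without wildtype replicate 1), with the mutant 0 to 2 higher and 0 to 1 lower, and between mutant and wildtype 4 to 11 higher and 4 to 6 lower. Related genes gave 6 to 9 and 9 to 14, 0 and 0 to 1, and 6 to 12 and 6 to 10. All genes gave 732 to 1614 and 655 to 1641, 5 to 227 and 2 to 610, and 693 to 1581 and 778 to 1577. On library totals 13 members were lower with wildtype GATA1, 14 were higher with the mutant than with wildtype, and 3 genes in all were lower with the mutant than with empty vector. For that last comparison, DESeq2 called 63 genes higher and 39 lower, 1 a member; without the low-count filter these were 119 and 296, with 1 member and 1 related gene lower. Summing mutant replicates 1 and 2 gave 9 and 2, and the replicate block on 9 libraries 12 and 2. Between mutant and wildtype, summing gave 779 genes higher and 772 lower, 5 members and 7 related genes among the higher. The replicate block on those 6 libraries, chosen after seeing the data, gave 2323 and 2417, with 15 members higher, 9 members lower and 15 related genes lower; on 9 libraries the block called 5 members higher and 7 lower with wildtype GATA1, none with the mutant, and 6 higher and 4 lower between mutant and wildtype. As shares of counts, the Pklr share changed by 10.8 percentage points with wildtype and 0.789 with mutant GATA1, that of Pfkm by 8.08 with wildtype and that of Slc2a3 by -4.41 with the mutant. With transcript lengths, also chosen after seeing the data, the changes were 8.82 and 0.631 for Pklr and 9.89 for Pfkm. The cause was not tested. Genes near 0 counts are limited by depth.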
